A study of Mus musculus with 2 samples.

Results

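The genes described here are 10 components of the Notch pathway: the receptors Notch1, Notch2, Notch3 and Notch4, the ligands Jag1 and Dll4, and the target genes Hes1, Hey1, Heyl and Nrarp. They were taken by symbol from the gene lists of both count matrices, and each was found once, so that they are 10 of 31053 genes. Single-cell RNA sequencing had been performed on dissociated whole mouse uterus on gestational day 4, in 1 library from Mettl14 d/d tissue and 1 library from Mettl14 f/f tissue. Mettl14 encodes an RNA-binding subunit of the methyltransferase that places N6-methyladenosine on messenger RNA, f/f denotes alleles flanked by recombination sites, and d/d denotes the deleted alleles. The labels give neither the deleted exons, the Cre driver, the age of the animals nor whether animals were pooled. Unique molecular identifiers (UMIs) were summed per library and cell class and are given as CPM, the UMIs of a gene scaled to the same UMI total in every class. Reads come from the 3′ end of transcripts, so levels are compared between classes and libraries within a gene, not between genes.

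Notch receptors are cleaved when a Jagged or Delta-like ligand on a neighbouring cell binds them. The freed intracellular part then joins the DNA-binding protein Rbpj and turns on target genes. Hes1, Hey1 and Heyl encode repressors of transcription, and Nrarp encodes a negative feedback regulator of the pathway. In blood vessels, Dll4 and Notch1 act in the endothelium during sprouting and arterial specification, and Jag1 and Notch3 act between endothelium and mural cells (pericytes and vascular smooth muscle). In the uterus, Notch genes have also been studied in the stroma, which becomes receptive and then decidualises around the implanting embryo.

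In the GRCm38 assembly with GENCODE M21 gene models, the receptor genes lie at chr2:26457903-26516663 (Notch1, minus strand), chr3:98013527-98150361 (Notch2, plus strand), chr17:32120820-32166852 (Notch3, minus strand) and chr17:34564268-34588503 (Notch4, plus strand). The ligand genes lie at chr2:137081456-137116644 (Jag1, minus strand) and chr2:119325784-119335962 (Dll4, plus strand). The target genes lie at chr16:30064384-30067796 (Hes1, plus strand), chr3:8663359-8667256 (Hey1, minus strand), chr4:123233556-123249875 (Heyl, plus strand) and chr2:25180758-25183339 (Nrarp, plus strand). Annotated genes on the other strand overlap Notch1, Notch3, Notch4, Dll4 and Nrarp, and genes on the same strand overlap Notch1 and Notch2. Whether counting used strand is not given in the sources used here, so reads of such pairs may not have been told apart. RefSeq promoter windows (GRCm38.p6, 250 bases before to 50 bases after the start) were matched for 7 of the 10 genes, all but Hes1, Hey1 and Heyl. That of Notch1, chr2:26503773-26504072, lies inside the gene span given above and not at its end. The windows were searched on both strands for TGGGAA, the core of the Rbpj site, and for its reverse complement, written TTCCCA in the windows. This core occurred in 25.6% of the 32851 mouse promoter windows and in 0 of these 7. The E-box CACGTG, a sequence bound by Hes and Hey family proteins among others, occurred in 7.15% of all windows and once in that of Nrarp. The Nrarp window is shown as the target gene of the list with a match, beside those of Hey2 and Lfng, a Hey family gene and a glycosyltransferase of Notch receptors that are described in the results and hold the Rbpj core. Capitals mark the motif letters, and in Lfng the E-box and the second Rbpj core overlap. A match of letters is a description of these windows and not evidence of binding.
Nrarp, chr2:25180508-25180807, plus strand: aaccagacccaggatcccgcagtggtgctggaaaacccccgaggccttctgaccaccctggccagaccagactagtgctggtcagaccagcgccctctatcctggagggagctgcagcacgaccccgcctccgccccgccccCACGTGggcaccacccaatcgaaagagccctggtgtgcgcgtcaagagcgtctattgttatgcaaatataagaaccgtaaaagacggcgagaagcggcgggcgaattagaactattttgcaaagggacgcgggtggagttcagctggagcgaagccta
Hey2, chr10:30842734-30843033, minus strand: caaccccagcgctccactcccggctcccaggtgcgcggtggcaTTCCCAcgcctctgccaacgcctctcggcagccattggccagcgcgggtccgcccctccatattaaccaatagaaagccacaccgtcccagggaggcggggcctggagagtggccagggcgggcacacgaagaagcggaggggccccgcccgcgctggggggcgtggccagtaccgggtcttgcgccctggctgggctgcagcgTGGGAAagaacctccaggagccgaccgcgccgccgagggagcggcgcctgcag
Lfng, chr5:140607091-140607390, plus strand: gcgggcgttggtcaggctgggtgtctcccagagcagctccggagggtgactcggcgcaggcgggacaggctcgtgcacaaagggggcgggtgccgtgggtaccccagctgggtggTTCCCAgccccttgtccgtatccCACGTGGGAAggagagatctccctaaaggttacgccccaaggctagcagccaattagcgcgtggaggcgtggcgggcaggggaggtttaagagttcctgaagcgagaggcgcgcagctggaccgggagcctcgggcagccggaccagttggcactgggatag

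After filtering, 5977 d/d cells and 7089 f/f cells were analysed, at median depths of 5217 and 6080 UMIs. The libraries differed in their cell classes: 28.4% of d/d cells and 65.1% of f/f cells were stroma, 33.0% and 7.15% were smooth muscle, and 11.9% and 4.60% were pericytes. The classes carried their defining markers, but several were filled by different clusters in each library. Most d/d stroma lay in cluster 3 (66.1%, 1124 cells, against 13 f/f cells), while clusters 0, 1 and 4 held 1456, 1441 and 1012 f/f cells and at most 15 d/d cells each. The cluster led by Clec3b (cluster 6) held 498 d/d and 341 f/f stromal cells. Pericytes lay mostly in cluster 8 in d/d (86.9%) and in cluster 12 in f/f (86.8%). Immediate early and heat shock genes, which respond to stress and to tissue dissociation, were higher in d/d in most classes, and their values are given with the results and by tertile after them. Mettl14 itself was at 2.46 CPM in d/d stroma and 14.5 CPM in f/f stroma (log2 fold -2.56), and at 18.6 and 19.3 CPM in blood endothelium (log2 fold -0.05). It was at 3.16 CPM in d/d and 19.0 CPM in f/f smooth muscle (log2 fold -2.59), and at 4.95 and 18.2 CPM in epithelium (log2 fold -1.88). Few Mettl14 UMIs were counted in pericytes (10 in d/d and 23 in f/f, log2 fold -1.78) and in macrophages (10 and 8, log2 fold -0.78). Mettl14 was thus lower in d/d stroma, smooth muscle and epithelium, and at nearly the same level in the blood endothelium of both libraries. The libraries shared 8 barcodes, 7 of them among the kept cells.

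With 1 library per genotype there is no replicate check, no p-value is given, and differences describe these libraries. Intervals in the text are exact 95% intervals and cover counting error only. A gene is called higher or lower in d/d where its CPM differed at least 2-fold with at least 50 UMIs over both libraries in that class, and log2 folds are d/d over f/f. The 6 classes that reached 100 cells in each library were compared.

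The receptors marked different classes, and the order of classes was much the same in both libraries. Notch1 was highest in lymphatic endothelium, at 523 CPM in d/d and 756 CPM in f/f, although that class held only 61 d/d and 82 f/f cells. It followed in blood endothelium, at 338 CPM in d/d and 245 CPM in f/f, and in pericytes, at 240 and 186 CPM. Below these 3 classes the intervals of neighbouring classes mostly overlapped. Notch1 was at 79.6 CPM in d/d and 97.7 CPM in f/f epithelium, and at 26.8 and 20.8 CPM in stroma. Notch2 had a different distribution, and was highest in dendritic cells, at 250 CPM in d/d and 264 CPM in f/f. It was at 182 CPM in d/d and 141 CPM in f/f smooth muscle, at 161 and 81.2 CPM in macrophages, and at 119 and 75.2 CPM in stroma. In blood endothelium, where Notch1 was high, Notch2 was at 9.95 CPM in d/d and 10.2 CPM in f/f, its lowest class in both libraries.

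Notch3 and Notch4 were each largely limited to 1 vascular compartment. Notch3, the receptor of mural cells, was at 656 CPM in d/d and 598 CPM in f/f pericytes, and 83.3% and 90.5% of pericytes held a Notch3 UMI at median depths of 3619 and 4879.5 UMIs. In T cells, which should lack it, the shares were 0.778% of d/d cells and 0 of 58 f/f cells, which allows up to 5.17% (3 cells of the total), at median depths of 2666 and 1554.5 UMIs. After thinning each cell to 2000 UMIs, 69.8% of d/d and 70.5% of f/f pericytes held one. The next class was smooth muscle, at 144 CPM in d/d and 65.1 CPM in f/f. Within it almost all Notch3 lay in the cluster led by Mustn1 (cluster 9), at 656 CPM in d/d and 529 CPM in f/f, against 6.76 and 3.59 CPM in the other smooth muscle cells. Notch4, an endothelial receptor, was at 36.4 CPM in d/d and 44.2 CPM in f/f blood endothelium, and blood endothelium supplied 85.1% and 83.5% of its UMIs.

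The ligands were vascular as well. Dll4 was at 198 CPM in d/d and 102 CPM in f/f blood endothelium and at 107 and 126 CPM in lymphatic endothelium, with no more than 6 CPM in the other classes of either library. Blood endothelium supplied 90.7% of Dll4 UMIs in d/d and 85.4% in f/f. A Dll4 UMI was present in 52.6% of d/d and 42.2% of f/f blood endothelial cells (median 5883 and 6098.5 UMIs), or 28.8% and 20.9% after thinning. None was found in 290 d/d or 227 f/f macrophages (median 4337 and 1981 UMIs), which allows shares of up to 1.03% and 1.32% by the same limit of 3 cells. Jag1, the ligand shared by endothelium and mural cells, was at 215 CPM in d/d and 117 CPM in f/f pericytes, at 162 and 107 CPM in blood endothelium, and at 121 and 64.2 CPM in smooth muscle. The first of these steps exceeded the counting intervals in d/d but not in f/f. Within smooth muscle, Jag1 too was higher in the Mustn1 cluster, at 415 CPM in d/d and 394 CPM in f/f, against 42.3 and 20.5 CPM in the other smooth muscle cells.

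**Figure D1:**
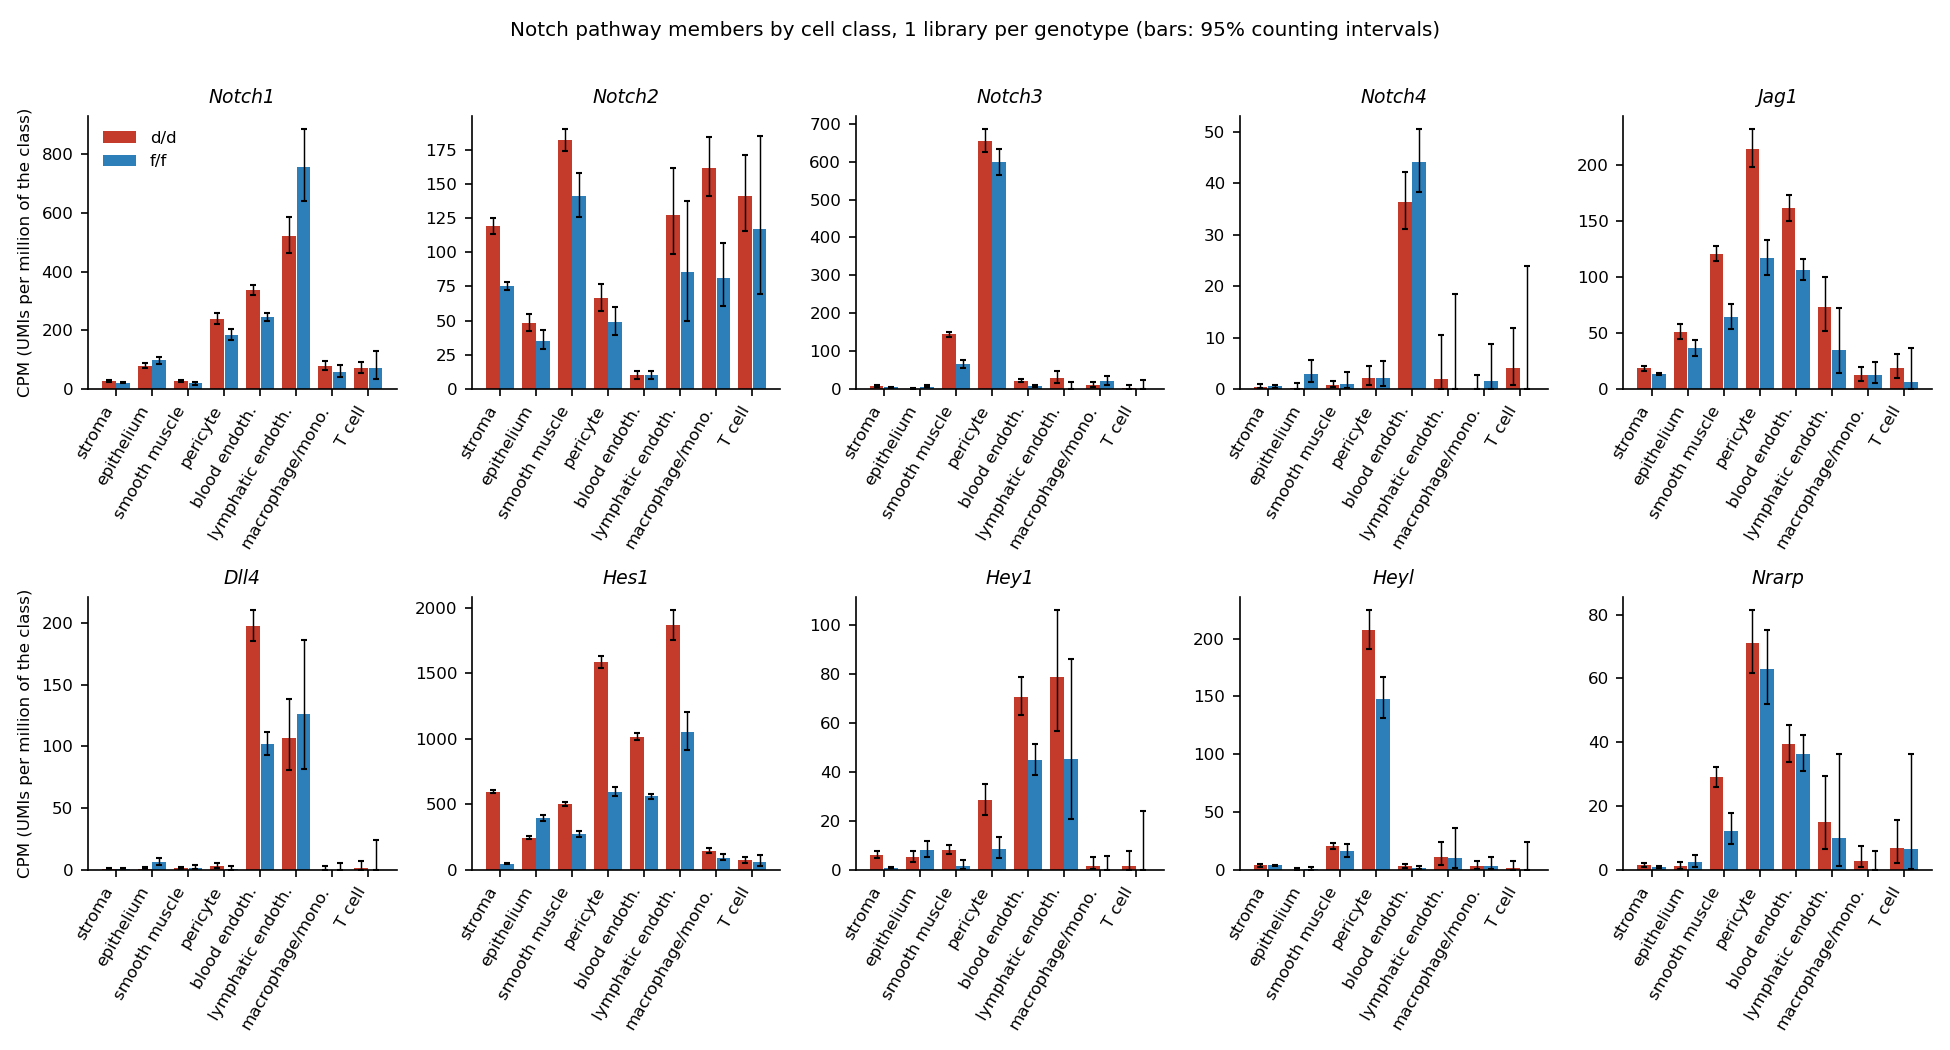
CPM of each of the 10 genes (1 panel each, linear axes of their own) in 8 cell classes, with d/d left in red and f/f right in blue and bars for exact 95% counting intervals of 1 library each. Notch3 and Heyl peak in pericytes and Dll4 and Notch4 in endothelium in both libraries, while Hes1 in stroma stands at 597 CPM in d/d and 46.7 CPM in f/f.

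Among the targets, Hes1 had the widest distribution. It was highest in lymphatic endothelium, at 1866 CPM in d/d and 1053 CPM in f/f, followed by pericytes at 1586 and 596 CPM and blood endothelium at 1016 and 560 CPM. The last pair did not differ beyond counting error in f/f. In d/d the order then ran through stroma (597 CPM), smooth muscle (501 CPM) and epithelium (246 CPM). In f/f it ran through epithelium (393 CPM) and smooth muscle (271 CPM), and stroma, at 46.7 CPM, lay between T cells (58.6 CPM) and dendritic cells (41.2 CPM) with overlapping intervals. Stroma was thus 4th of 10 classes in d/d and 9th of 11 in f/f. Hey1 followed the endothelium, at 70.7 CPM in d/d and 44.8 CPM in f/f blood endothelium. Heyl followed the pericytes, at 208 CPM in d/d and 148 CPM in f/f, which supplied 66.4% and 61.4% of its UMIs. Nrarp was at 71.1 CPM in d/d and 62.8 CPM in f/f pericytes and at 39.4 and 36.3 CPM in blood endothelium. Natural killer (NK) or innate lymphoid cells were at 42.5 CPM in d/d (10 UMIs) and 23.1 CPM in f/f (30 UMIs), with intervals that overlapped those of blood endothelium. Within smooth muscle, the Mustn1 cluster was at 125 CPM of Nrarp in d/d and 100 CPM in f/f.

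Stroma showed the largest Hes1 fold of the 6 compared classes. Of the 7 genes with enough UMIs, Hes1 and Hey1 were called higher in d/d and 0 lower, where 7.94% of 12524 genes tested in stroma were higher and 7.55% lower. Hes1 had 7773 UMIs in d/d and 1563 UMIs in f/f stroma (log2 fold 3.68, interval 3.60 to 3.76). A Hes1 UMI was present in 66.4% (64.0% to 68.6%) of d/d stromal cells and in 15.6% (14.6% to 16.7%) of f/f stromal cells, at median depths of 7024.5 and 6630 UMIs, and in 45.7% and 6.65% after thinning. No class was taken to lack Hes1, but 13.8% of f/f T cells, at a lower median depth, held a UMI, so a low level in f/f stroma cannot be told apart from free RNA. Hey1 had 79 UMIs in d/d and 27 UMIs in f/f stroma, or 6.07 and 0.807 CPM (log2 fold 2.91, 2.26 to 3.60). The remaining stromal folds were smaller: 0.66 for Notch2, 0.81 for Notch3, 0.47 for Jag1, 0.37 for Notch1 and 0.01 for Heyl, on the log2 scale. Pericyte markers summed to 153 CPM in d/d and 97.0 CPM in f/f stroma (1.84% and 0.83% of their level in pericytes), with 0 of 9 at zero in d/d. Notch4, Dll4 and Nrarp had too few UMIs in stroma.

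The stromal fold of Hes1 was not the same in every cluster. In the Clec3b cluster, which both libraries filled, Hes1 was at 748 CPM in d/d and 335 CPM in f/f (log2 fold 1.16, 1.01 to 1.31), and in the rest of the stroma at 568 and 32.7 CPM (log2 fold 4.12). The d/d cluster 3 was at 585 CPM, and the f/f clusters 0, 1 and 4 were at 23.1, 18.7 and 64.8 CPM. The cycling cluster 11 was at 430 CPM in d/d and 43.2 CPM in f/f. Hes1 was therefore high in every d/d stromal cluster listed, and in f/f it was high in the Clec3b cluster only. Restricted to that cluster, 2 of 3 genes with enough UMIs were higher and 0 lower, against 4.41% of all genes higher and 3.3% lower: Hes1, and Notch1 with 66 UMIs in d/d and 18 UMIs in f/f (31.7 and 11.6 CPM, log2 fold 1.44). Hey1 had only 10 UMIs in d/d and 4 UMIs in f/f there.

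**Figure D2:**
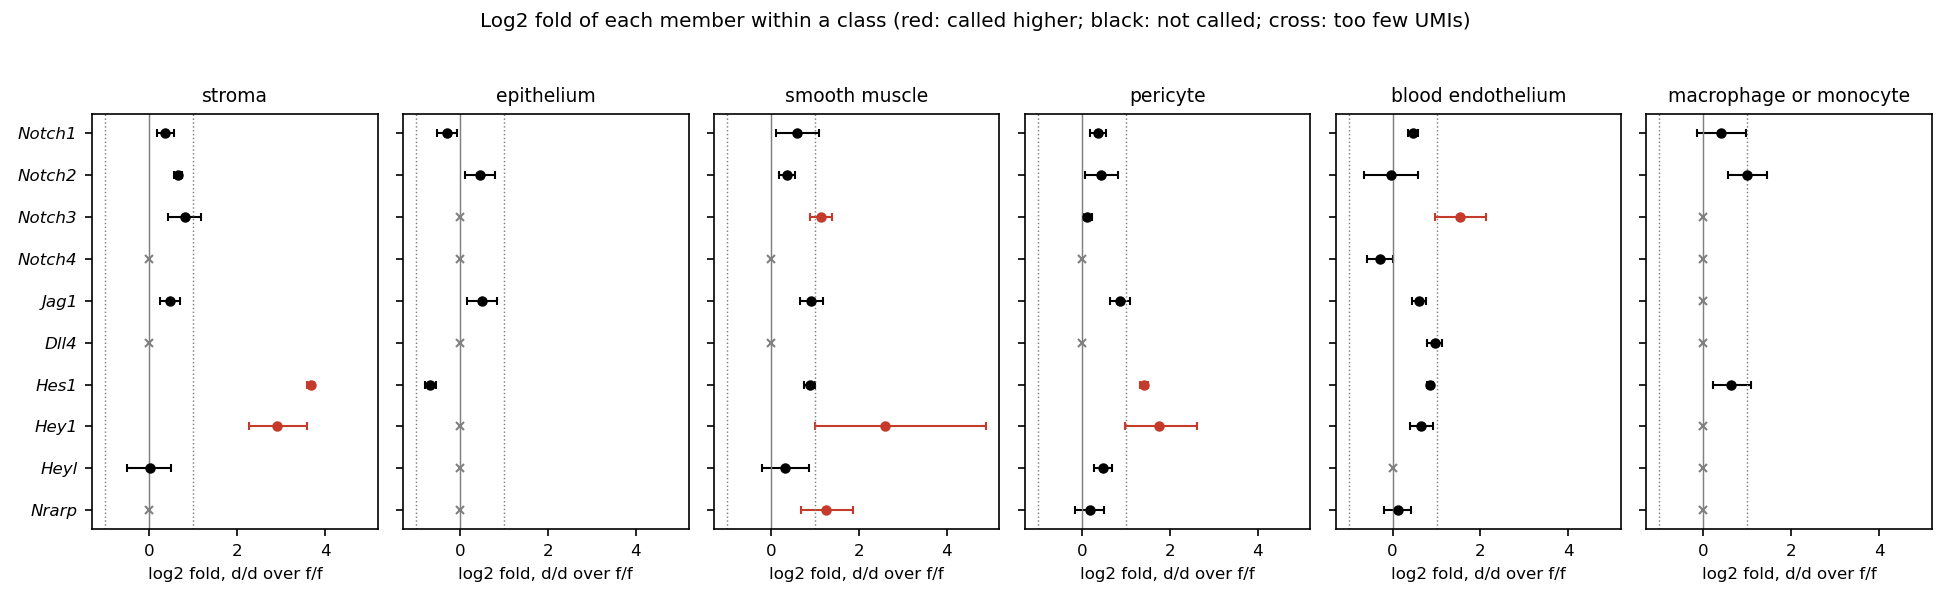
Log2 fold of CPM, d/d over f/f, for each gene in the 6 compared classes (1 panel each), with bars for exact 95% counting intervals and dotted lines at 2-fold. Red points are called higher, black points are not called, and a cross at 0 marks too few UMIs. Hes1 lies at 3.68 in stroma and at -0.67 in epithelium.

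In pericytes the targets Hes1 and Hey1 were higher in d/d, while Heyl, Nrarp and the receptor Notch3 were not called. Of 8 genes with enough UMIs, Hes1 and Hey1 were called higher in d/d and 0 lower, against 5.28% of 8591 genes higher and 7.14% lower. Hes1 was at 1586 CPM in d/d and 596 CPM in f/f pericytes (log2 fold 1.41, 1.32 to 1.51). Hey1 had 81 UMIs in d/d and 16 UMIs in f/f, or 28.4 and 8.38 CPM (log2 fold 1.76, 0.97 to 2.63). Notch3 had a log2 fold of 0.13 (0.02 to 0.24), Jag1 of 0.87, Heyl of 0.49 and Nrarp of 0.18, all under the 2-fold limit. The clusters that filled the class in each library also differed in Hes1. In cluster 8, with 618 d/d and 43 f/f cells, Hes1 was at 1777 CPM (1723 to 1832) in d/d and 1050 CPM (853 to 1278) in f/f. In cluster 12, with 93 d/d and 283 f/f cells, it was at 736 CPM (664 to 813) in d/d and 573 CPM (538 to 609) in f/f. Within each cluster the difference was thus smaller than over the class. Hey1 in cluster 12 was at 26.7 CPM in d/d and 8.30 CPM in f/f, with too few UMIs for a call there.

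Smooth muscle had 3 of 8 genes called higher in d/d, Notch3, Hey1 and Nrarp, and 0 lower, against 5.05% of 10694 genes higher and 4.22% lower. Notch3 had 1592 UMIs in d/d and 144 UMIs in f/f (log2 fold 1.14, 0.90 to 1.40). Nrarp had 321 UMIs in d/d and 27 UMIs in f/f, or 29.0 and 12.2 CPM (log2 fold 1.25, 0.68 to 1.87). Hey1 had 91 UMIs in d/d and 3 UMIs in f/f (log2 fold 2.60, 1.01 to 4.90). These class sums mix cells of unlike Notch gene content in different proportions, because the Mustn1 cluster made up 24.9% of d/d and 12.0% of f/f smooth muscle cells. Within the Mustn1 cluster 0 of 7 genes were called, against 8.77% of all genes higher and 6.74% lower, and the log2 folds were 0.31 for Notch3, 0.08 for Jag1, 0.32 for Nrarp and -0.37 for Hes1. Without that cluster, 2 of 5 genes were higher and 0 lower, against 4.6% of all genes higher and 4.14% lower. Hes1 was then at 245 CPM in d/d and 57.4 CPM in f/f (log2 fold 2.09, 1.82 to 2.38), and Jag1 at 42.3 and 20.5 CPM (log2 fold 1.04, 0.57 to 1.55). Notch3 was at 6.76 and 3.59 CPM there (log2 fold 0.91, -0.22 to 2.29) and was not called. Nrarp had 29 UMIs in d/d and 1 UMI in f/f. Hey1 had 45 UMIs in d/d and 1 UMI in f/f there (log2 fold 3.33, 0.78 to 8.67). Within the Mustn1 cluster Hey1 had 46 and 2 UMIs (log2 fold 1.35, -0.58 to 4.44). The Hey1 fold was thus positive in both parts, with too few UMIs for a call in either.

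The Mustn1 cluster carried markers of both smooth muscle and pericytes. Its smooth muscle markers summed to 16442 CPM in d/d and 19149 CPM in f/f (75.7% and 63.1% of their level in smooth muscle as a whole), and its pericyte markers to 2273 and 3376 CPM (27.4% and 28.9% of their level in pericytes). A UMI of both Notch3 and Jag1 was found in 69.4% of d/d and 59.0% of f/f cells of this cluster, and in 42.3% and 39.9% of pericytes. Notch3 together with Heyl was found in 29.0% of d/d and 31.1% of f/f cells of the cluster, and in 42.9% and 47.2% of pericytes. Hes1 was at 1457 CPM in d/d and 1883 CPM in f/f, so it was not higher in d/d in this cluster.

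**Figure D3:**
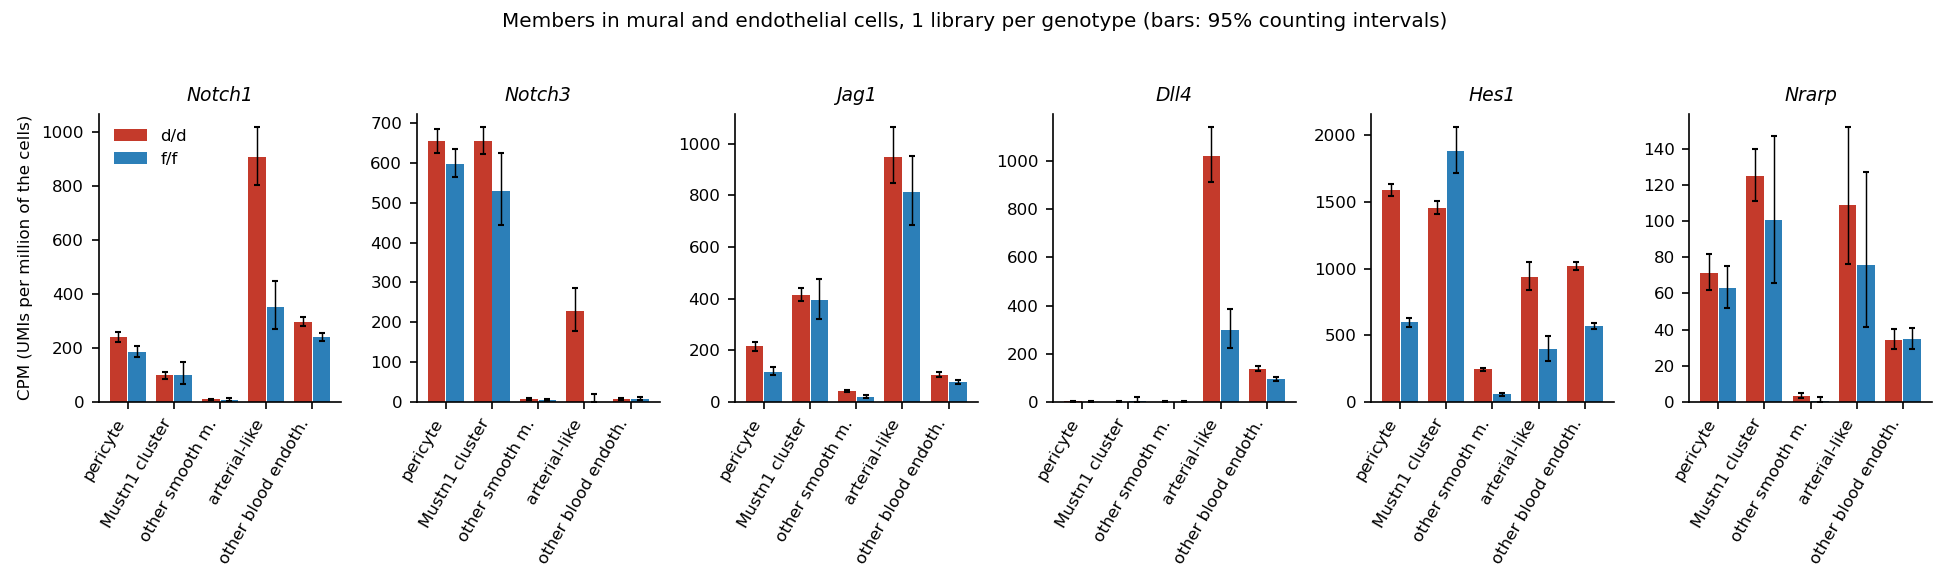
CPM of Notch1, Notch3, Jag1, Dll4, Hes1 and Nrarp (1 panel each) in pericytes, the Mustn1 cluster, other smooth muscle, the arterial-like cluster and other blood endothelium, with d/d left in red and f/f right in blue and bars for exact 95% counting intervals. Notch3 and Jag1 in the Mustn1 cluster are at similar levels in both libraries, and Dll4 in the arterial-like cluster is at 1022 CPM in d/d and 298 CPM in f/f.

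In blood endothelium 1 of 9 genes, Notch3, was called higher in d/d and 0 lower, against 4.85% of 9983 genes higher and 3.83% lower. Notch3 had 104 UMIs in d/d and 36 UMIs in f/f, or 22.0 and 7.65 CPM (log2 fold 1.53, 0.97 to 2.12). The endothelial Notch genes themselves stayed under the 2-fold limit: Dll4 had a log2 fold of 0.95 (0.79 to 1.12), Hes1 of 0.86, Hey1 of 0.66, Jag1 of 0.60, Notch1 of 0.47, Nrarp of 0.12 and Notch4 of -0.28. The first 5 of these were positive beyond counting error. The median over all genes in this class was -0.05.

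A small arterial-like cluster within the blood endothelium, led by Gja5, Sema3g, Dll4 and Bmx, held 106 d/d and 33 f/f cells, or 17.6% and 6.60% of the class. Of 6 genes with enough UMIs, Notch1, Notch3, Dll4 and Hes1 were higher in d/d there and 0 lower, against 16.3% of all genes higher and 12.4% lower. Dll4 had 328 UMIs in d/d and 55 UMIs in f/f, or 1022 and 298 CPM (log2 fold 1.78, 1.36 to 2.22). Notch1 had 291 UMIs in d/d and 65 UMIs in f/f, or 907 and 352 CPM (log2 fold 1.37, 0.97 to 1.78), and Hes1 was at 938 and 395 CPM (log2 fold 1.25). A UMI of both Notch1 and Dll4 was found in 68.9% of d/d and 48.5% of f/f arterial-like cells, at median depths of 2317.5 and 3448 UMIs. Notch3 had 73 UMIs in 38 of 106 d/d cells and 0 UMIs in the 33 f/f cells. With the f/f sum set to a floor of 3 UMIs this is 14.0-fold higher in d/d (log2 fold 3.81, lower end of the exact interval 3.47). Pericyte markers summed to 1571 CPM in the d/d cells of this cluster and to 16.2 CPM in its f/f cells (18.9% and 0.14% of their level in pericytes), with 0 of 9 at zero in d/d and 6 of 9 in f/f. Smooth muscle markers summed to 1219 and 271 CPM. Immediate early and heat shock genes summed to 49774 CPM in d/d and 6495 CPM in f/f arterial-like cells, and 21 of 21 tested were higher in d/d. Mural markers thus moved with Notch3 and these genes with all 4 calls, and the part of the mural markers was not tested. Outside this cluster 0 genes were called, against 4.58% of all genes higher and 3.99% lower. Notch3 in this remaining endothelium was at 7.04 CPM in d/d and 7.96 CPM in f/f (log2 fold -0.18), and Dll4 was at 137 and 93.9 CPM (log2 fold 0.55).

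Epithelium had 0 of 4 genes called, against 6.32% of 9399 genes higher and 12.1% lower. Hes1 was the gene with the largest difference. It was at 246 CPM in d/d and 393 CPM in f/f epithelium (log2 fold -0.67, -0.79 to -0.56), the only compared class with a negative Hes1 fold. An epithelial sub-cluster of 7 d/d and 88 f/f cells was led by collagen genes, and stromal markers summed to 261 CPM in d/d and 1975 CPM in f/f epithelium (1.41% and 17.9% of their level in stroma). Without it, Hes1 was at 244 CPM in d/d and 466 CPM in f/f (log2 fold -0.93, -1.06 to -0.81), still under 2-fold. Each remaining sub-cluster was filled by 1 library, apart from 1 d/d cell in the glandular-like one: those of d/d were at 233 and 284 CPM, and the glandular-like and luminal-like f/f sub-clusters were at 397 and 540 CPM. Notch1 had a log2 fold of -0.30, Notch2 of 0.45 and Jag1 of 0.50 in epithelium.

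Macrophages had 0 of 3 genes called, against 10.3% of 4982 genes higher and 12.4% lower. Notch2 was at 161 CPM in d/d and 81.2 CPM in f/f (log2 fold 0.99, 0.55 to 1.45), just under the limit. Hes1 was at 145 CPM in d/d and 93.7 CPM in f/f macrophages (log2 fold 0.63).

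Set side by side, the median log2 fold of the genes with enough UMIs was 0.66 in stroma, where the median of all genes tested was -0.13, 0.90 and -0.13 in smooth muscle, 0.47 and -0.17 in pericytes, 0.60 and -0.05 in blood endothelium, 0.08 and -0.16 in epithelium, and 0.63 and -0.19 in macrophages. Summed over all kept cells, 7 of the 10 genes were higher in d/d and 0 lower, against 11.9% of 14571 genes higher and 6.42% lower. Such a sum follows the makeup of the library. The levels of 11 cell groups, unnamed cells included, were therefore also combined with the same weights in both libraries. Each group's weight was the mean of its shares of all UMIs in the 2 libraries. The d/d over f/f fold of Notch3 was then 1.39 instead of 2.96, that of Heyl 1.31 instead of 2.33, that of Nrarp 1.40 instead of 2.40 and that of Jag1 1.64 instead of 2.72. Hes1 was less affected, at 2.99 instead of 4.05. The origin of the UMIs shows the same shift. Pericytes supplied 50.4% of Notch3 UMIs in d/d and 75.5% in f/f, and the Mustn1 cluster 41.2% and 9.05%. Stroma supplied 33.6% of Notch2 UMIs in d/d and 73.8% in f/f.

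**Figure D4:**
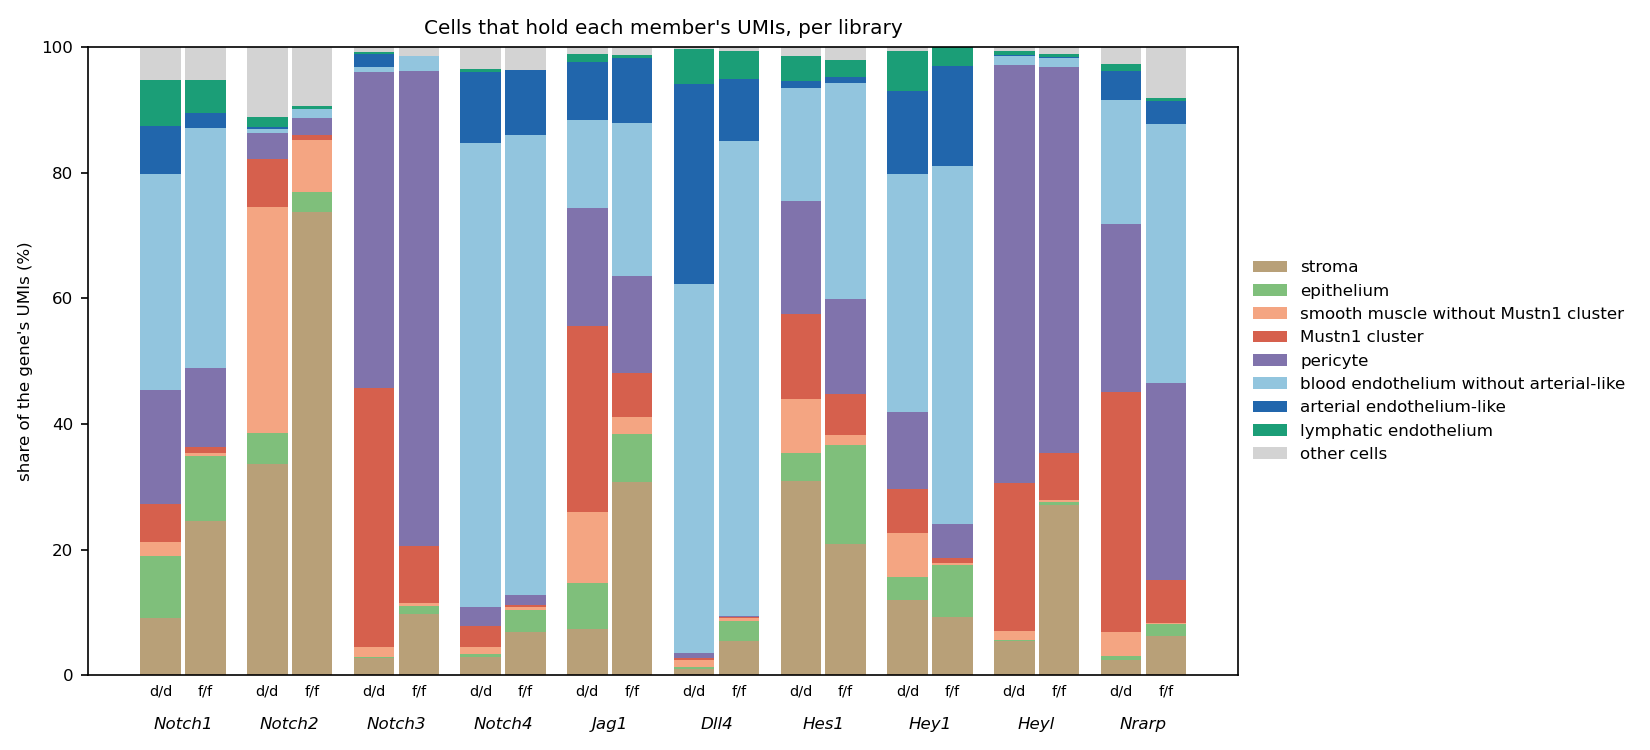
Share of each gene's UMIs in percent that came from each cell group, stacked to 100%, with the d/d bar beside the f/f bar for each of the 10 genes. Stroma supplied 33.6% of Notch2 UMIs in d/d and 73.8% in f/f, and the Mustn1 cluster 41.2% of Notch3 UMIs in d/d and 9.05% in f/f.

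Immediate early and heat shock genes were measured beside Hes1. Both were higher in d/d in stroma, pericytes, blood endothelium and smooth muscle. In epithelium these genes were higher in d/d while Hes1 was lower. In the Mustn1 cluster they summed to 30492 CPM in d/d and 17146.5 CPM in f/f, while Hes1 was lower in d/d. In stroma 18 of 22 such genes were higher in d/d, and together they summed to 14307 CPM in d/d and 3780 CPM in f/f. The sums were 22564 and 6940 CPM in pericytes, 26601 and 8992 CPM in blood endothelium, 20032 and 9190 CPM in smooth muscle, and 17179 and 11442 CPM in epithelium. Cells of both libraries were therefore divided within each class into pooled tertiles by the share of their UMIs in these genes. In the lowest tertile, Hes1 was at 125 CPM in 53 d/d stromal cells and 22.6 CPM in 2053 f/f stromal cells (log2 fold 2.47, 2.02 to 2.89), and the log2 fold was 2.36 and 2.04 in the middle and highest tertiles. Hes1 over the whole stroma was thus more than 4-fold higher in d/d in each tertile, a comparison mostly of d/d cluster 3 with f/f clusters 0, 1 and 4. In the Clec3b cluster alone the log2 fold was 0.77, 0.22 (-0.03 to 0.47) and 1.11 over the tertiles, and passed 2-fold in the highest tertile only. Pericytes gave another picture. In their lowest tertile Hes1 was at 557 CPM in 92 d/d cells and 510 CPM in 254 f/f cells (log2 fold 0.13, -0.09 to 0.34), and the log2 fold was 0.47 and 0.39 in the middle and highest tertiles. In blood endothelium the log2 fold of Hes1 was -0.27, -0.19 and 0.72 over the tertiles, and in epithelium -0.58, -0.60 and -1.09. In smooth muscle, where the class fold of Hes1 was 0.88, it was 0.51, -0.61 (-0.80 to -0.42) and -0.64 (-0.85 to -0.43). Without the Mustn1 cluster it was 0.64 (0.22 to 1.06), 1.74 and 2.13, so that Hes1 stayed under 2-fold in the lowest tertile there. The Notch3 and Nrarp calls of smooth muscle were not seen within tertiles. Notch3 was at 0.61, -0.46 (-0.89 to -0.01) and -0.54 (-0.91 to -0.13), and Nrarp at 0.17, -0.56 and -0.37, on the log2 scale. Hey1 was at 1.64, 1.77 and 0.92, with 1 f/f UMI in each tertile. The Mustn1 cluster had a median share of these genes of 2.82% in d/d and 1.80% in f/f, against 1.53% and 0.745% in other smooth muscle. These tertiles therefore also sort cells by cluster, and the highest held only 41 f/f cells. In pericytes, stroma and blood endothelium the Hes1 level was higher in each tertile than in the one below it in both libraries, and reached 2093 CPM in d/d and 1596 CPM in f/f pericytes of the highest tertile, where f/f had only 14 cells. The arterial-like cluster could barely be divided: in its lowest tertile, with 14 d/d and 32 f/f cells, Notch3 had 0 UMIs in both libraries, and Dll4 was at 392 CPM in d/d and 286 CPM in f/f (log2 fold 0.46, -0.43 to 1.27). The log2 fold was 0.46 (-0.32 to 1.19) for Notch1 and -0.49 (-1.51 to 0.40) for Hes1 there, so that none of the 4 genes passed 2-fold in that tertile.

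**Figure D5:**
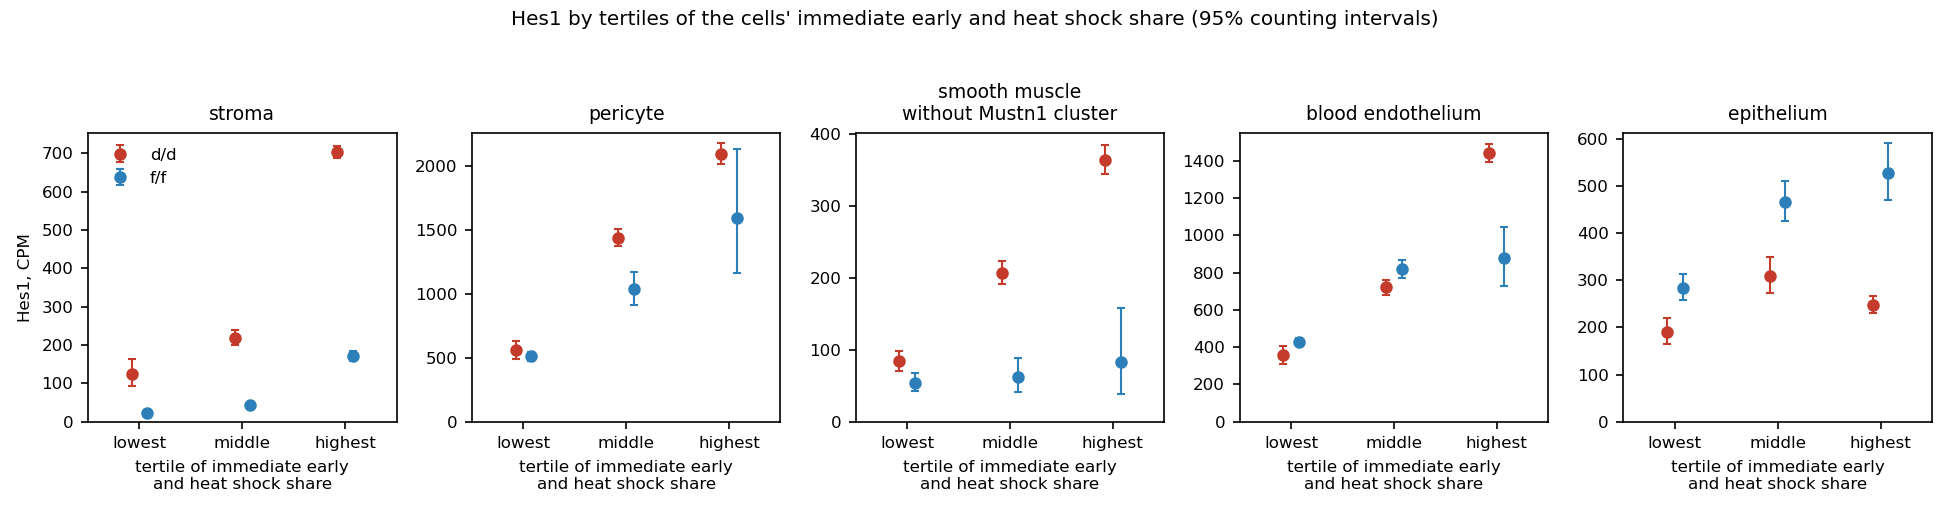
Hes1 CPM in the lowest, middle and highest pooled tertile of cells by their share of UMIs in immediate early and heat shock genes, in 5 cell groups, with d/d left in red and f/f right in blue and bars for exact 95% counting intervals. In stroma d/d lies above f/f in each tertile (125 and 22.6 CPM in the lowest), while pericytes of the lowest tertile lie at 557 CPM in d/d and 510 CPM in f/f.

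The rest of the pathway was taken as lists, and few of its genes were called. Over all 12524 genes tested in stroma, 7.94% were higher and 7.55% lower, so 1 call among 12 or 13 genes lies near that share. Of the 12 nuclear complex and corepressor genes tested in stroma, Tle3, a corepressor recruited by Hes proteins, was higher, and Rbpj, the DNA-binding partner of the Notch intracellular part, was lower. Rbpj was at 66.8 CPM in d/d and 213 CPM in f/f stroma (log2 fold -1.67, -1.77 to -1.57). In the Clec3b cluster it was at 88.4 CPM in d/d and 105 CPM in f/f (log2 fold -0.25), and in blood endothelium at 56.8 and 62.0 CPM, so the stromal difference lay in the clusters that the libraries did not share. Of 13 glycosylation and cleavage genes tested in stroma, Furin, a protease that processes Notch receptors, was higher, at 47.4 CPM in d/d and 21.2 CPM in f/f (log2 fold 1.16). Lfng, which adds sugars to the receptors, was lower, at 1.54 CPM in d/d and 3.14 CPM in f/f (log2 fold -1.03). Of 12 trafficking and turnover genes 0 were called in stroma. Both genes with enough UMIs among the other Hes and Hey genes were higher in stroma: Hes6 at 27.1 CPM in d/d and 12.4 CPM in f/f, and Hey2 at only 1.92 and 0.75 CPM (log2 fold 1.36). In the Clec3b cluster alone, 1 gene of that list had enough UMIs, with a log2 fold of -0.0006. Of 11 glycosylation and cleavage genes tested in that cluster, 0 were called. Of its 12 nuclear complex and corepressor genes, Tle3 was higher and Kat2a lower.

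Outside stroma, the same lists gave 1 or 2 calls each at most. Over all genes tested, 5.28% were higher and 7.14% lower in pericytes, 4.85% and 3.83% in blood endothelium, and 5.05% and 4.22% in smooth muscle. The shares were 10.3% and 12.4% in macrophages and 6.32% and 12.1% in epithelium. Beside such shares, a single call says little about a list. In pericytes Furin (log2 fold 1.10), Tle3 (1.70) and Maml3, a coactivator of the Notch complex (1.24), were higher in d/d, of 12 genes tested in each list. In blood endothelium the ligand Dll1 was at 46.0 CPM in d/d and 15.1 CPM in f/f (log2 fold 1.61, and 1.52 without the arterial-like cluster), and the ligand Jag2 at 113 and 97.7 CPM. Neurl3 (log2 fold 1.29) and Hey2 (1.36) were also higher in blood endothelium and Dtx4 was lower (-1.75). In smooth muscle Neurl1a was higher (1.12) and Neurl1b lower (-1.03), of 12 trafficking genes. In macrophages Furin (1.21) and Neurl3 (1.10) were higher and Dtx3 was lower (-1.03). In epithelium Furin was higher (1.14), and Rfng, a glycosyltransferase of the same kind as Lfng (-1.70), Maml2 (-1.30) and Kat2b (-1.01) were lower. Furin was thus higher in 4 of the 6 compared classes.

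Across 18 profiles, each a class of at least 50 cells in 1 library, the genes most like each member in log2(CPM + 1) were taken from 13556 genes. The profiles share libraries and depth, and the correlations are descriptions. Notch3 was most like Kcnk3 (Pearson r 0.96), Rgs4 (0.95) and Ndst3 (0.93), and Heyl most like Meox2 (0.97), Art3 and Ndst3. Dll4 was most like Mmrn2 (0.97), Clca2 and Clca3a1. Hes1 was most like Hey1 (0.92), 3222401L13Rik and Cdh13 (0.89), and Hey1 most like Ppp1r2 (0.92), Hes1 and Cdh13. Jag1 was most like Ano6 (0.92), Lnx2 and Tinagl1, Nrarp most like Itga1 (0.89), Peak1 and Mcam, and Notch4 most like Tmem255b (0.92), Sele and Zfp366. Notch1 was most like Apold1 (0.86), Tead4 and Tpm4, and Notch2, with the lowest value, most like Dock11 (0.74), Tagap and Ccdc50. Among the 10 genes themselves the closest pairs were Hes1 with Hey1 (0.92), Notch3 with Heyl (0.87), Dll4 with Hey1 (0.85) and Jag1 with Hes1 (0.84).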

How the data were processed

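As deposited by the authors, each matrix gives unnormalized UMI counts, 1 per gene and cell barcode, per the file headers. Libraries were made with a droplet 3′ kit (v3) from enzymatically dissociated whole uterus, per the labels' protocols. The genome was mm10, per the submitters' processing notes. These notes give Cell Ranger 3.0.1 and the matrix headers give cellranger 6.0.1, so the version is unsettled. The d/d matrix held 6661 barcodes and 44745031 UMIs, and the f/f matrix 8164 barcodes and 55080123 UMIs, with no barcode under 500 UMIs.

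Cells were kept with at least 1000 UMIs, 500 genes and at most 20% mitochondrial UMIs. Doublets were scored per library with Scrublet, and the highest 0.8% per 1000 barcodes were removed (355 d/d and 533 f/f barcodes marked). Counts scaled to 10000 and logged were reduced to 2000 variable genes, with the 10 genes and the Notch pathway lists held out, and 30 principal components, and clustered without integration (Leiden, 15 neighbours, resolution 1, scikit-learn 1.9.0, leidenalg 0.10.2, igraph 0.11.9, scanpy 1.11.5). Marker lists gave the clusters their class names, so classes are rebuilt and not the authors' own. UMIs were summed per library and class. Intervals are exact Poisson for sums, Clopper-Pearson for shares (a share of 0 is given with the limit of 3 cells of the total) and conditional exact for ratios (scipy 1.17.1), and a sum of 0 was set to 3 UMIs over the class. Interval coverage was tested on simulated Poisson sums only, which hold no spread between cells or animals. The genes, lists and settings were chosen with earlier results of these data known. Genes named beyond the 10 are those of the lists called in a compared class, Mettl14, and the 3 genes most like each member. Jag2 was named after its values were seen, as the other ligand measured in blood endothelium.

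Alternatives were other cell filters, scaling, clustering, call limits and cell subsets. TMM scaling (trimmed mean of M values) in edgeR 4.0.16 shifted the median log2 fold over all genes to 0.27 in macrophages, where it was -0.19, and by 0.22 in epithelium, 0.20 in pericytes and 0.18 in smooth muscle, so folds there are read relative to these shifts.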

Additional observations from a re-analysis of the deposited data

How the results depend on the processing

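The 8 calls in compared classes (Hes1 and Hey1 in stroma and pericytes, Notch3, Hey1 and Nrarp in smooth muscle, Notch3 in blood endothelium) all remained under TMM scaling, totals without mitochondrial and ribosomal protein genes, resolution 2, the Notch genes kept for clustering, at most 10% mitochondrial UMIs, doublets kept and separate clustering of each library. With at least 2000 UMIs per cell, 6 calls could be made again and 6 were kept, and in the lowest tertile of the immediate early gene share 1 of 3 was kept. Over the listed alternatives in which the gene kept enough UMIs (of the tertiles, the lowest only), the log2 fold ranged from 1.16 to 3.73 for Hes1 and from 2.80 to 3.03 for Hey1 in stroma, from 0.13 to 1.61 for Hes1 and from 1.38 to 1.96 for Hey1 in pericytes, from 0.61 to 2.39 for Notch3, 2.54 to 3.91 for Hey1 and 1.24 to 3.01 for Nrarp in smooth muscle, and from -0.18 to 1.57 for Notch3 in blood endothelium. The value of -0.18 came without the arterial-like cluster and turned the direction, which left 0 genes higher in blood endothelium. In the lowest tertile of the immediate early gene share, 1 gene was higher in pericytes, 0 in smooth muscle and 0 in blood endothelium. The pericyte gene was Heyl, which was not called over the class, at 300 CPM in d/d and 144 CPM in f/f (log2 fold 1.06, 0.73 to 1.38). Hes1 was at a log2 fold of 0.13 there, and Hey1, with 12 UMIs in d/d and 13 UMIs in f/f, had too few to be called. In stroma 1 gene was lower in the lowest tertile (Notch1, with 1 UMI in 53 d/d cells and 317 UMIs in 2053 f/f cells, log2 fold -3.04, -8.35 to -0.55). Hes1 in smooth muscle passed 2-fold with doublets kept (2.60), at least 2000 UMIs (2.06), TMM (1.06), separate clustering (1.05), the Notch genes kept (1.13) and without the Mustn1 cluster (2.09).

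Counts of genes called moved as follows. No share over all genes under the same setting stands beside these counts, and a lower call limit raises that share as well. They are therefore not read as results about the 10 genes, and the same holds for the counts in the lowest tertile above. With doublets kept, 5 were higher in smooth muscle, 2 in blood endothelium and 3 in macrophages, and 1 was lower in epithelium. In smooth muscle 5 were higher under TMM, separate clustering and the Notch genes kept. In macrophages 2 were higher under TMM, and 1 under separate clustering, the Notch genes kept and at most 10% mitochondrial UMIs. With a 1.5-fold limit, 4 were higher in stroma, 6 in smooth muscle, 5 in blood endothelium and 2 in macrophages, and 1 was lower in epithelium. With no UMI minimum, 5 were lower in epithelium and 1 in macrophages. Except where a value above shows it, the cause was not tested. Thinning to 2000 UMIs moved 99 of 120 shares of cells. Stromal clusters with 10% of the stroma of both libraries gave no value, because 0 clusters reached it, and a limit of 5% was chosen after seeing the data, as were the comparisons without the Mustn1 cluster, the arterial-like cluster and the epithelial sub-cluster. No paired analysis was possible because there was 1 library per genotype and the labels give no replicate numbers. Genes under 50 UMIs in a class could not be called, which was most often so for Dll4 and Notch4, in 5 of the 6 compared classes each.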
